A study of Mus musculus with 31 samples.

Results

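The response of peritoneal macrophages to interleukin 4 (IL4) was compared between mice whose macrophages had been knocked out for PPARγ (KO, labelled PPARgammaMPKO) and control mice, and the genes whose response differed between the genotypes are described. The comparison is the log2 difference between IL4-treated and untreated KO cells, minus the same difference in control cells. It compares the means of 16 of the 31 libraries of the series, while all 31 entered the scaling, the filter and the estimate of the spread of each gene. All cells came from C57BL/6 mice aged 8.5 weeks that had been injected with 3% thioglycollate, an irritant that draws monocytes into the abdominal cavity. The cells were collected 4 days later and cultured overnight. The 4 groups were KO cells kept for 24 h with 20 ng/mL IL4, untreated KO cells, control cells kept for 24 h with 20 ng/mL IL4, and untreated control cells, with 4 libraries each. The labels give no such time for the untreated cells, so a response to IL4 and one to longer culture cannot be told apart. A further 15 libraries, of KO and control cells with 1 uM rosiglitazone (a synthetic PPARγ ligand) or with DMSO (its vehicle), served as a further readout; their means do not enter the IL4 comparison. The labels give 4 mice per genotype, so the treatments of a genotype share mice; what drives the knockout and which part of Pparg it removes are left unstated there. Nothing in the labels says that a replicate number is a mouse, so the p-values treat the libraries as separate samples and measure the spread between them.

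Of 10327 genes tested, 72 had a genotype difference in the IL4 response at an adjusted p under 0.05 (0.697%), 26 above 0 (0.252%) and 46 below 0 (0.445%), by limma with Benjamini-Hochberg adjustment over all genes. The balance of directions depended on the processing: 14 genes above 0 and 10 below passed with the values as deposited, and 9 above and 34 below with the 16 libraries alone. They were sorted by the direction of the difference and of the 2 responses. For 41 genes IL4 raised the level in control cells and raised it less, or with no rise that passed, in KO cells; these are called genes whose induction needs the receptor. For 20 genes IL4 raised the level more in KO cells than in control cells; these are called genes whose induction is restrained by the receptor. In 6 genes IL4 lowered the level in control cells and less so, or with no change that passed, in KO cells, and in 5 genes IL4 lowered the level in KO cells with no change that passed in control cells. The names state directions of difference and no mechanism. Levels below are FPKM, fragment values set per transcript length and per size of the library, rescaled so that the median gene is level between libraries. Differences are in log2(FPKM + 1), which understates the change of genes near or below 1 FPKM. For such genes the class can depart from the ratio of the IL4 mean to the untreated mean. That ratio was 678 in KO cells and 1498 in control cells for Rnase2a, and 10.5 and 9.26 for Flt1. It was 47.3 and 60.0 for Ear2, and 4.02 and 5.47 for Slco2b1. For Ccl24 (94.4 and 15.2) and Prps1 (1.14 and 3.44) the ratios went with the class.

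**Figure D1:**
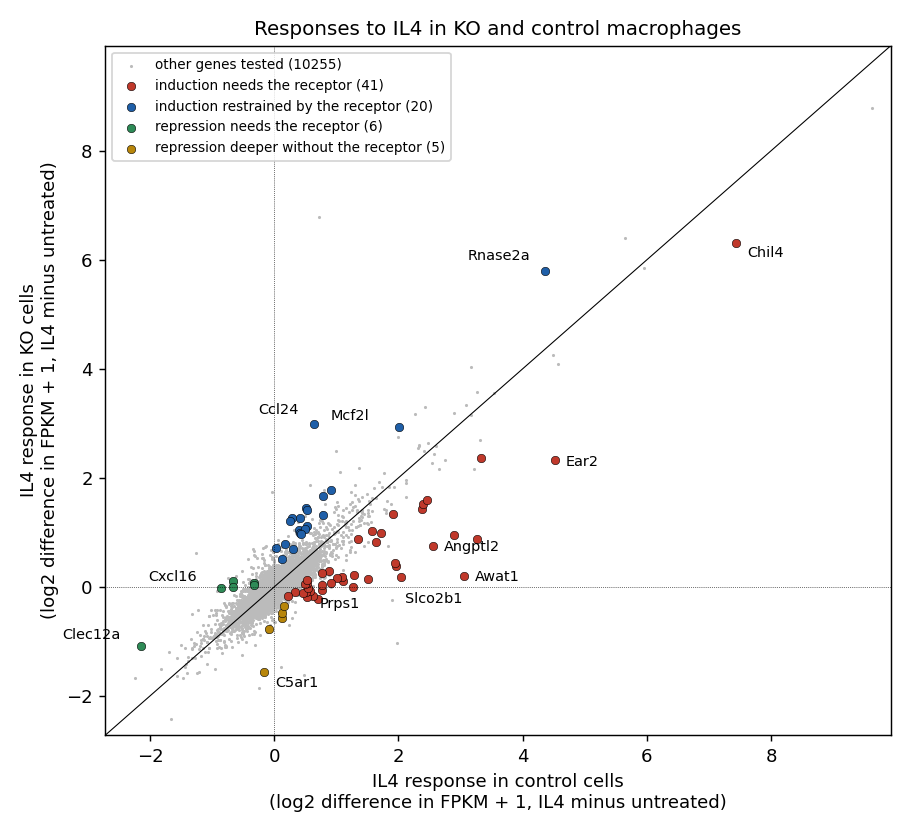
IL4 response in KO cells (y axis) against the IL4 response in control cells (x axis), both as log2 differences in FPKM + 1 between IL4-treated and untreated cells, 1 point per gene tested. The line marks equal responses; the 41 red genes and 5 ochre genes lie below it and the 20 blue genes and 6 green genes above it, with Awat1, Ear2 and Ccl24 among the farthest from it.

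PPARγ is a nuclear receptor that pairs with the retinoid X receptor, binds fatty acids and their derivatives, and activates genes that take up, store and burn lipid. IL4 acts through its receptor and the transcription factor STAT6 to drive alternative activation of macrophages, a state marked by arginase, chitinase-like proteins and mannose receptor. STAT6 and PPARγ are both known to act at macrophage enhancers, and IL4 raises the level of the Pparg transcript in macrophages.

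The 16 libraries carried macrophage RNA: the summed FPKM of 9 macrophage markers lay between 1020 and 1154 in KO cells with IL4, 1148 and 1289 in untreated KO cells, 1088 and 1208 in control cells with IL4, and 1227 and 1333 in untreated control cells. The summed FPKM of 14 mesothelial and fibroblast markers was higher in KO cells with IL4 (41.4 to 169.8) and in untreated KO cells (25.1 to 98.4) than in most control libraries with IL4 (4.85 to 44.3) or without (3.26 to 49.2). For the genotype difference in the IL4 response 0 of the 13 markers tested passed, beside 0.697% of all genes, so this 0 says little. The part of such RNA in the results was not tested. In bulk samples, fewer cells of a type and less RNA per cell cannot be told apart. The deposited FPKM of KO untreated libraries 2 and 3 and control IL4 library 2 summed to 150901, 166420 and 152055, and those of the other libraries of the series to between 222091 and 306000. Without these 3 libraries 46 genes passed, 43 of them among the 72: 28 of the 41 genes whose induction needs the receptor, 12 of the 20 restrained genes and 3 of the 11 genes of the repression classes. All 72 kept their direction, which their choice from mostly the same libraries largely fixes. No read totals come with the table, so no counting interval could be set on a level. Exact zeros and FPKM far too small for a whole fragment occur in the table, and such values are printed as listed.

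Pparg itself had 127, 116, 101 and 130 FPKM in KO cells with IL4 and 43.3, 50.8, 37.5 and 49.4 in untreated KO cells. Control cells had 92.4, 93.4, 99.5 and 103 with IL4 and 47.1, 53.4, 49.2 and 48.7 untreated. IL4 raised it in both genotypes, by 1.37 in KO cells and 0.96 in control cells on the log2 scale. Its genotype difference of 0.42 (95% interval 0.16 to 0.68) did not pass (limma, adjusted p = 0.24). The labels do not say which part of the gene is removed, and no exon was examined, so these gene-level values check no label.

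The IL4 response passed for 2015 genes in KO cells and 2373 in control cells, and 1456 of them passed in both. Passing in only 1 genotype does not show that the genotypes differ. IL4 raised 1046 genes in KO cells (10.1%) and lowered 969 (9.38%), against 1231 raised (11.9%) and 1142 lowered (11.1%) in control cells. Of the 1456 genes that passed in both genotypes, 1455 had the same sign; the exception was Pcyox1, described below. The classical markers of alternative activation were strongly raised in both genotypes. Arg1, arginase 1, averaged 99.7 FPKM in KO cells with IL4 and 84.8 in control cells with IL4, and its genotype difference was −0.11 (95% interval −0.93 to 0.70). Mrc1, the mannose receptor, had a genotype difference of −0.10 (−0.48 to 0.27), Socs1, an inhibitor of cytokine signalling, −0.10 (−0.36 to 0.16), and Irf4, a transcription factor of the IL4 response, −0.02 (−0.36 to 0.31). These intervals bound the difference and do not show that the genotypes responded alike; those of Retnla (0.76, −0.90 to 2.42) and Chil3 (−0.83, −1.78 to 0.12) were wide. Of 33 tested genes of an IL4 response list, IL4 raised 30 in KO cells and 27 in control cells. The genotype difference passed above 0 for Ccl24, Rnase2a, Flt1 and Il4i1 and below 0 for Chil4, and the list's median difference was 0.02, beside 0.01 over all genes. Of 14 tested genes of the IL4 receptor and STAT6 pathway, 0 passed for the genotype difference (limma; 1 at an unadjusted p under 0.05), and Il4ra (−0.09, −0.48 to 0.31), Jak1 (−0.08, −0.30 to 0.15) and Stat6 (−0.05, −0.28 to 0.19) were among them. Of 18 tested genes of the PPAR and RXR family and their coregulators 0 passed (limma, with 2 at an unadjusted p under 0.05, Pparg and Ppargc1b). Over all genes tested 0.697% passed, so a count of 0 says little about lists of 14 or 18 genes.

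Among the 41 genes whose induction needs the receptor, the control response ranged from 0.23 to 7.44 on the log2 scale. They are 3.33% of the 1231 genes that IL4 raised in control cells. In 23 of them the response of KO cells did not pass above 0, with estimates from −0.23 to 0.22 and a median of 0.03. For genes below 1 FPKM in KO cells, such as Awat1 and Slco2b1, the pseudocount of 1 holds this estimate near 0. In the other 18 the KO response passed above 0 and was smaller, with a median of 54.4% of the control response on the log2 scale. The median genotype difference of the 41 was −0.83, which the choice of the genes fixes in sign, beside 0.01 over all genes tested.

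Awat1, an acyl-CoA wax alcohol acyltransferase that makes wax esters, had 0.115, 0.353, 0.0470 and 0.222 FPKM in KO cells with IL4 and 0.0215, 0.0558, 0.0273 and 0 in untreated KO cells. Control cells had 18.5, 19.1, 14.2 and 18.3 with IL4 and 1.39, 1.30, 1.03 and 1.17 untreated. Every KO library, with or without IL4, was below every control library. The ratio of the IL4 mean to the untreated mean was 7.05 in KO cells and 14.4 in control cells. The KO response was 0.20 ± 0.11 and the control response 3.06 ± 0.11 (SE), a genotype difference of −2.86 ± 0.15 (limma, adjusted p = 1.04e-12), the largest in size among the 72. Dgat1, which catalyses the last step of triglyceride synthesis, had 6.03, 5.81, 5.44 and 5.89 FPKM in KO cells with IL4 and 4.86, 4.97, 4.90 and 5.52 in untreated KO cells. Control cells had 18.4, 17.4, 18.7 and 18.1 with IL4 and 8.90, 8.46, 8.38 and 8.42 untreated. IL4 raised Dgat1 by 1.01 on the log2 scale in control cells and by 0.16, which did not pass, in KO cells, and with or without IL4 every KO library stayed below the untreated control libraries (difference −0.84 ± 0.09, limma, adjusted p = 1.87e-06). Gpd1, the cytosolic glycerol 3-phosphate dehydrogenase that supplies the glycerol backbone, had 0.704, 0.568, 0.553 and 0.807 FPKM in KO cells with IL4 and 0.355 to 0.534 in untreated KO cells. Control cells had 2.25, 2.38, 2.53 and 2.57 with IL4 and 0.325 to 0.552 untreated. The untreated genotypes overlapped for Gpd1 and the IL4-treated ones did not (difference −1.06 ± 0.13, limma, adjusted p = 1.65e-05).

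Nr1h3, which encodes the oxysterol receptor LXRα, had 6.77, 7.65, 7.67 and 6.53 FPKM in KO cells with IL4 and 7.40, 7.96, 7.91 and 7.69 in untreated KO cells. Control cells had 35.9, 36.2, 40.8 and 35.3 with IL4 and 25.0, 26.4, 26.4 and 24.5 untreated. Its difference was −0.62 ± 0.10 (limma, adjusted p = 0.000742), on top of a level that was already lower in untreated KO cells by 1.60 on the log2 scale. Nr1h3 overlaps Acp2 in the annotation, so reads of the pair may not be told apart. Peroxisomal genes were represented by Pex16, a peroxin needed to form the peroxisomal membrane (5.19 to 5.99 FPKM in KO cells with IL4 and 4.14 to 5.10 in untreated KO cells, against 12.3 to 14.0 in control cells with IL4 and 5.24 to 5.86 in untreated control cells), and by Acox3, an oxidase of branched-chain acyl-CoA. Pex16 had a difference of −0.90 ± 0.12 and Acox3 of −0.65 ± 0.13 (limma, adjusted p = 3.84e-05 and 0.01). Pla2g6, a calcium-independent phospholipase A2, had 0.644 to 0.964 FPKM in KO cells with IL4 and 0.648 to 0.795 in untreated KO cells. Control cells had 2.24 to 2.95 with IL4 and 0.918 to 1.29 untreated. Adipoq, the hormone adiponectin, best known from fat cells, was listed at 0 in all 8 untreated libraries of either genotype and had 1.17 to 2.79 FPKM in KO cells with IL4, against 3.23 to 5.44 in control cells with IL4 (difference −0.95 ± 0.17, limma, adjusted p = 0.0018).

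**Figure D2:**
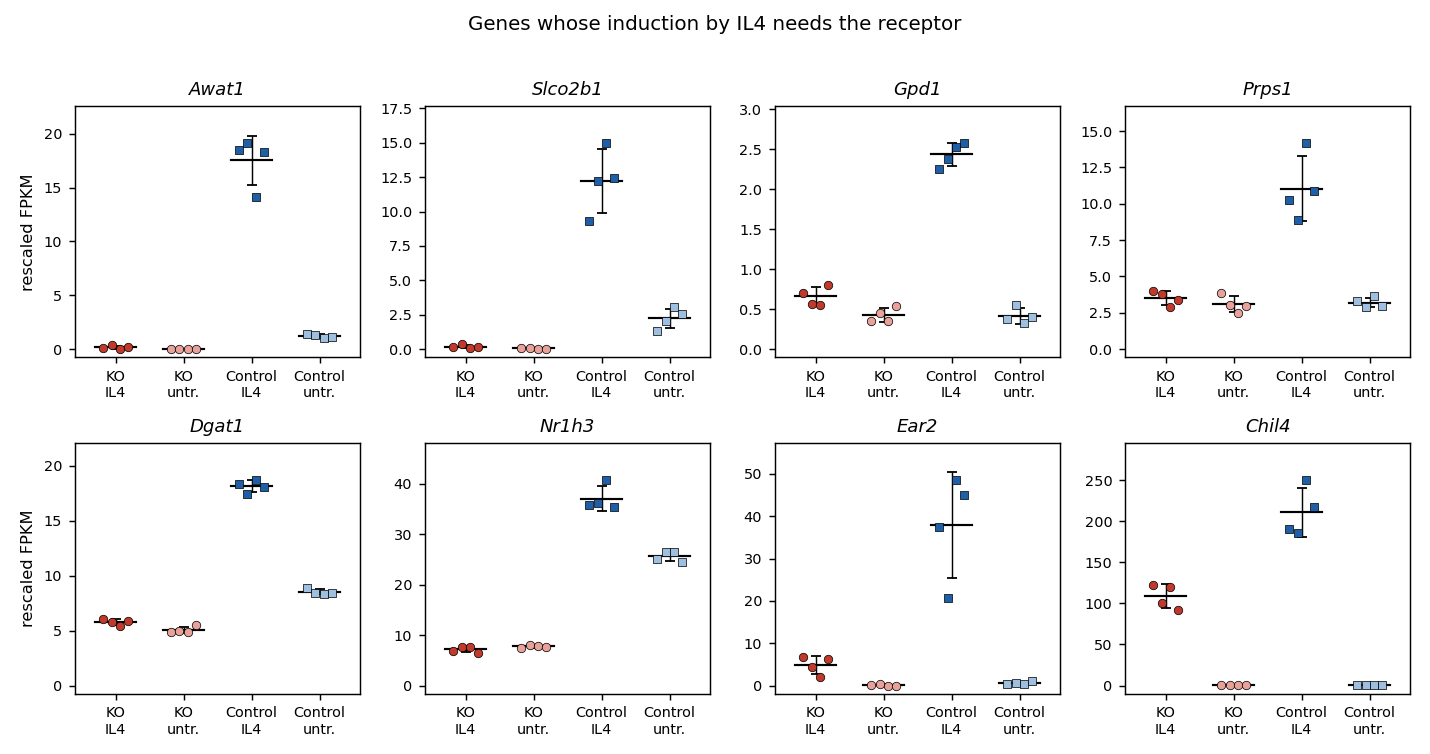
Rescaled FPKM of 8 genes whose induction by IL4 needs the receptor, in 4 KO libraries with IL4, 4 untreated (untr.) KO libraries, 4 control libraries with IL4 and 4 untreated control libraries (points), with the group mean (line) and SD (bars). Awat1, Slco2b1, Dgat1 and Nr1h3 are lower in both KO groups, Gpd1 and Prps1 overlap between the untreated genotypes, and Ear2 and Chil4 rise in both genotypes but less in KO cells.

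The eosinophil-associated ribonucleases, a mouse family of secreted RNases with near-identical copies, gave 4 of the 10 largest differences below 0. Ear2 had 6.85, 4.33, 1.94 and 6.27 FPKM in KO cells with IL4 and at most 0.326 in untreated KO cells. Control cells had 37.6, 20.6, 48.6 and 45.1 with IL4 and 0.432 to 1.00 untreated (difference −2.20 ± 0.34, limma, adjusted p = 0.000379). Ear1, Ear3 and Ear10 had differences of −1.50 ± 0.12, −2.39 ± 0.43 and −1.93 ± 0.22 and were likewise raised less in KO cells. Reads of these copies may be split between them, and the levels of Ear3 in untreated control cells, from 5.02e-06 to 0.328, include values too small for a whole fragment, so each single member is uncertain. With a pseudocount of 0.1 in place of 1, 13 of the 41 genes no longer passed, among them Ear2 (−0.95, limma, adjusted p = 1.00), Ear3, Ear10, Slco2b1, B3gnt7, Chil4, Adipoq, Ier3, Gatm and Plk3. The eosinophil markers moved with these genes, at a summed 8.26 to 18.6 FPKM in KO cells with IL4 and 4.34 to 8.30 in untreated KO cells, against 28.7 to 57.3 in control cells with IL4 and 6.31 to 9.43 in untreated control cells, but Ear1 and Ear2 are 2 of the 8 markers summed. Of the other 6, Siglecf, a sialic acid-binding lectin that macrophages can also express, had 5.98 to 11.8 FPKM in KO cells with IL4 and 4.12 to 7.91 in untreated KO cells, against 5.30 to 7.49 in control cells with IL4 and 5.71 to 8.78 in untreated control cells. Epx, the eosinophil peroxidase, was at 0 in all 16 libraries, and Prg2, Ear6, Il5ra and Ccr3 reached at most 0.163. The part of eosinophil RNA in these values was not tested.

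Transport, sugar and nucleotide metabolism supplied further genes of the class. Slco2b1, an organic anion transporter, had 0.187, 0.338, 0.0823 and 0.122 FPKM in KO cells with IL4 and 0.0174 to 0.0710 in untreated KO cells. Control cells had 9.28, 12.2, 15.0 and 12.4 with IL4 and 1.35, 2.03, 3.03 and 2.54 untreated. As for Awat1, no KO library reached the lowest control library (difference −1.87 ± 0.21, limma, adjusted p = 2.25e-06). Prps1, which makes phosphoribosyl pyrophosphate for nucleotide synthesis, had 4.02, 3.79, 2.87 and 3.36 FPKM in KO cells with IL4 and 3.86, 3.03, 2.50 and 2.95 in untreated KO cells. Control cells had 10.3, 8.86, 14.2 and 10.8 with IL4 and 3.29, 2.92, 3.65 and 2.97 untreated. Here the untreated genotypes overlapped and only control cells with IL4 stood apart (difference −1.36 ± 0.15, limma, adjusted p = 2.26e-06). B3gnt7, a glycosyltransferase that extends lactosamine chains, had 0.444 to 0.718 FPKM in KO cells with IL4 and 0.0586 to 0.310 in untreated KO cells. Control cells had 8.91 to 10.4 with IL4 and 1.33 to 2.06 untreated. Slc37a2, a sugar phosphate exchanger of the endoplasmic reticulum, and Gpt2, the mitochondrial alanine aminotransferase, had smaller differences of −0.57 ± 0.10 and −0.51 ± 0.10.

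Secreted proteins, adaptors, receptors and a kinase were also among the 41. Angptl2, a secreted angiopoietin-like protein, had 2.60, 3.03, 4.93 and 1.81 FPKM in KO cells with IL4 and 1.33, 1.31, 2.31 and 0.711 in untreated KO cells. Control cells had 8.62, 10.6, 9.74 and 11.6 with IL4 and 0.988, 0.893, 0.688 and 0.955 untreated. The untreated groups overlapped, the IL4-treated groups did not, and the difference was −1.81 ± 0.28 (limma, adjusted p = 0.000327). Dab2, an adaptor of clathrin-mediated endocytosis, had a KO response of 0.01 and a control response of 1.26 on the log2 scale. Chil4, a chitinase-like protein of the alternative state, was raised by 6.31 in KO cells and by 7.44 in control cells; it had 92.0 to 123 FPKM in KO cells with IL4, against 185 to 250 in control cells with IL4. It has a close paralog, Chil3, with which it may share reads. Ifngr1, a chain of the interferon γ receptor, had 34.0 to 39.1 FPKM in KO cells with IL4 and 41.1 to 45.3 in untreated KO cells. Control cells had 61.8 to 78.8 with IL4 and 46.4 to 55.4 untreated. C5ar2, the alternative receptor of the complement fragment C5a, and Plk3, a stress-responsive kinase, had differences of −0.93 ± 0.20 and −0.83 ± 0.15.

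In 3 of the 41 genes the smaller response went with a higher start. Ier3, an early-response gene, had 21.1 to 25.5 FPKM in KO cells with IL4 and 2.98 to 4.80 in untreated KO cells. Control cells had 25.7 to 30.8 with IL4 and 1.26 to 2.63 untreated. Gatm, which makes the creatine precursor guanidinoacetate, had 25.4 to 39.8 FPKM in KO cells with IL4 and 8.27 to 12.3 in untreated KO cells. Control cells had 33.0 to 40.3 with IL4 and 5.53 to 7.73 untreated. Sdc4, a heparan sulfate proteoglycan of the cell surface, had 30.3 to 44.4 FPKM in KO cells with IL4 and 14.2 to 20.6 in untreated KO cells. Control cells had 39.8 to 48.6 with IL4 and 11.4 to 14.3 untreated. All 3 were higher in untreated KO cells (limma, adjusted p = 0.0065, 0.0194 and 0.021), and none passed between the genotypes with IL4, where the differences were −0.25, −0.30 and −0.28.

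The remaining genes of the class had differences from −0.997 to −0.40. Tex9, Ankrd55, Maff (a small Maf transcription factor), Gas2l1, Megf9, Osgin1, Sema4b, Smap2 (a regulator of vesicle traffic) and Plekha3 were among them, as were the cell cycle kinase Cdk2, the peptidase neurolysin (Nln), the engulfment adaptor Elmo2, the immune adaptor Sash3, the actin-severing protein gelsolin (Gsn) and Pcyox1, which degrades prenylcysteines. Tex9 had 0.253 to 0.319 FPKM in KO cells with IL4 and 0.151 to 0.270 in untreated KO cells, against 1.16 to 1.48 in control cells with IL4 and 0.0866 to 0.114 in untreated control cells, and a difference of −0.997 ± 0.08 (limma, adjusted p = 9.64e-09). Pcyox1 was the gene whose responses passed in opposite directions, −0.18 in KO cells and 0.23 in control cells.

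The promoters of the 2 induced classes were searched. The genes of a class share directions because they were sorted by them, and whether they vary together was not tested. Promoter sequences of 250 bases before to 50 bases after the start, from RefSeq on build GRCm38.p6, were at hand for 35 of the 41 genes and 15 of the 20 restrained genes, as 48 and 25 promoters. The motif AGGTCA, bound by nuclear receptors such as PPAR and RXR, searched on either strand, was in 14.6% of the 48, 12.0% of the 25, 12.3% of the 10058 promoters of tested genes and 16.3% of all 32851 promoters. The direct repeat of 2 such motifs with 1 base between, with up to 2 mismatches over its 12 fixed bases and so overlapping the first search, was in 2.08%, 4.0%, 2.84% and 3.86%. The STAT-type palindrome of TTC and GAA was in 4.17%, 4.0%, 5.35% and 6.95% with 4 bases between, and in 12.5%, 8.0%, 6.95% and 8.3% with 3 bases between. The shares of the 2 classes rest on 1 to 7 promoters each, and a match is a run of letters, not a site shown to be bound. The stretches below show what these matches look like in the 2 classes, with the match in capitals: the palindrome with 3 bases between at 133 to 125 bases before the start of Slco2b1 (chr7:99695914-99695962, minus strand), at 200 to 192 bases before that of Chil4 (chr3:106219651-106219699, minus strand) and at 36 to 28 bases before that of Fgl2 (chr5:21372617-21372665, plus strand), and the direct repeat at 103 to 91 bases before that of Elmo2 (chr2:165316422-165316474, minus strand).
Slco2b1: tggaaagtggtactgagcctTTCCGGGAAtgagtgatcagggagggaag
Chil4: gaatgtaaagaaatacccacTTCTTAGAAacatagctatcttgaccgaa
Fgl2: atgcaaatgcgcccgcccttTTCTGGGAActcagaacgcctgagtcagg
Elmo2: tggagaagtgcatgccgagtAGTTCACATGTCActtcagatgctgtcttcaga

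The 20 genes whose induction is restrained by the receptor are 1.91% of the 1046 genes that IL4 raised in KO cells. IL4 raised 15 of them in both genotypes and 5 (Il4i1, Usp18, Ubxn11, Jsrp1 and Vhl) in KO cells with no change that passed in control cells. They were expressed at lower levels than the genes of the first class: 13 of the 20 averaged under 5 FPKM in KO cells with IL4, where they were highest, against 9 of the 41 in control cells with IL4. The largest difference was that of Ccl24, the chemokine eotaxin-2, which attracts eosinophils. Ccl24 had 14.2, 6.30, 4.20 and 8.37 FPKM in KO cells with IL4 and 0.0932, 0, 0.0885 and 0.168 in untreated KO cells. Control cells had 0.638, 0.669, 0.481 and 0.669 with IL4 and 0.0300, 0, 0.0725 and 0.0586 untreated. The untreated genotypes overlapped, and with IL4 the lowest KO library was above the highest control library (difference 2.35 ± 0.23, limma, adjusted p = 3.42e-07). Rnase2a, an RNase of the eosinophil-associated family, had 56.1, 48.5, 63.7 and 71.6 FPKM in KO cells with IL4 and at most 0.180 in untreated KO cells, against 16.2, 14.0, 27.4 and 24.5 in control cells with IL4 and at most 0.0548 in untreated control cells. It moved opposite to Ear1, Ear2, Ear3 and Ear10, with a difference of 1.44 ± 0.19 (limma, adjusted p = 2.53e-05), and as a member of the same family it may share reads with them.

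Signalling and immune genes followed. Flt1, a receptor of vascular endothelial growth factor, had 3.42, 1.67, 2.26 and 2.29 FPKM in KO cells with IL4 and 0.136 to 0.316 in untreated KO cells. Control cells had 0.449, 0.660, 0.362 and 0.517 with IL4 and 0.0437 to 0.0722 untreated (difference 0.95 ± 0.14, limma, adjusted p = 0.000194). Fgl2, a fibrinogen-like immune regulator and prothrombinase, had 63.5, 51.4, 56.97 and 60.4 FPKM in KO cells with IL4 and 14.0 to 21.6 in untreated KO cells. Control cells had 20.3, 23.4, 19.7 and 24.7 with IL4 and 11.5 to 13.2 untreated. The range of Fgl2 in untreated KO cells thus overlapped that of control cells with IL4 at its upper end. IL4 raised Fgl2 further in KO cells (difference 0.88 ± 0.16, limma, adjusted p = 0.00307). Usp18, which removes the ubiquitin-like modifier ISG15, had 8.51, 5.54, 6.87 and 7.04 FPKM in KO cells with IL4 and 1.54 to 3.10 in untreated KO cells. Control cells had 2.18, 1.89, 2.71 and 2.58 with IL4 and 1.39 to 2.12 untreated. It was the 1 of 20 tested interferon-stimulated genes that passed (difference 0.96 ± 0.19, limma, adjusted p = 0.00885), and the median difference of that list was 0.01. With DMSO-treated cells in place of untreated ones Usp18 did not pass (0.69, limma, adjusted p = 0.120). Il4i1, an L-amino acid oxidase induced by IL4, had 1.15, 1.22, 1.27 and 2.33 FPKM in KO cells with IL4, against 0.335, 0.0172, 0.587 and 0.000299 in control cells with IL4; it was at most 0.0615 in untreated KO cells and at most 2.15e-20 in untreated control cells, and it overlaps Tbc1d17, so its level is uncertain.

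The other restrained genes included enzymes, cytoskeletal genes and surface receptors. Gda, guanine deaminase, had 28.4 to 34.5 FPKM in KO cells with IL4 and 7.25 to 9.66 in untreated KO cells. Control cells had 13.1 to 16.9 with IL4 and 6.51 to 8.50 untreated. Mcf2l, a guanine nucleotide exchange factor, had 11.9 to 18.9 FPKM in KO cells with IL4 and 0.580 to 1.90 in untreated KO cells. Control cells had 4.51 to 7.93 with IL4 and 0.555 to 1.04 untreated. Car2, carbonic anhydrase, had 1.39 to 2.71 FPKM in KO cells with IL4, against 0.320 to 0.704 in control cells with IL4. For these 3 genes the IL4-treated genotypes did not overlap, which their choice by a genotype difference in the same libraries largely fixes. Vhl, the ubiquitin ligase subunit that marks hypoxia-inducible factor for destruction, was at 8.77 to 10.8 FPKM in KO cells with IL4 and at 6.32 to 6.86 in untreated KO cells, against 6.70 to 7.20 in control cells with IL4 and 6.07 to 6.57 in untreated control cells; its difference of 0.37 ± 0.09 was the smallest of the class. Tppp3, Rtkn, Itgb8 (an integrin subunit), Dab2ip, Ltb4r1 (the high-affinity leukotriene B4 receptor), Tarm1 (an activating receptor of myeloid cells), Tuba8, Ubxn11, Jsrp1 and 4932438H23Rik had differences from 0.38 to 0.85 and averaged under 5 FPKM in every group. The calls of this class depended on how low values are handled. With a pseudocount of 0.1 in place of 1, 5 of the 20 passed: Ccl24, Usp18, Fgl2, Gda and Vhl. Rnase2a (1.01, limma, adjusted p = 0.867), Flt1, Car2, Il4i1, Mcf2l and Tppp3 were among those that did not. Among genes with at least 1 FPKM in 8 libraries, a filter that 14 of the 20 did not reach, 6 passed.

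**Figure D3:**
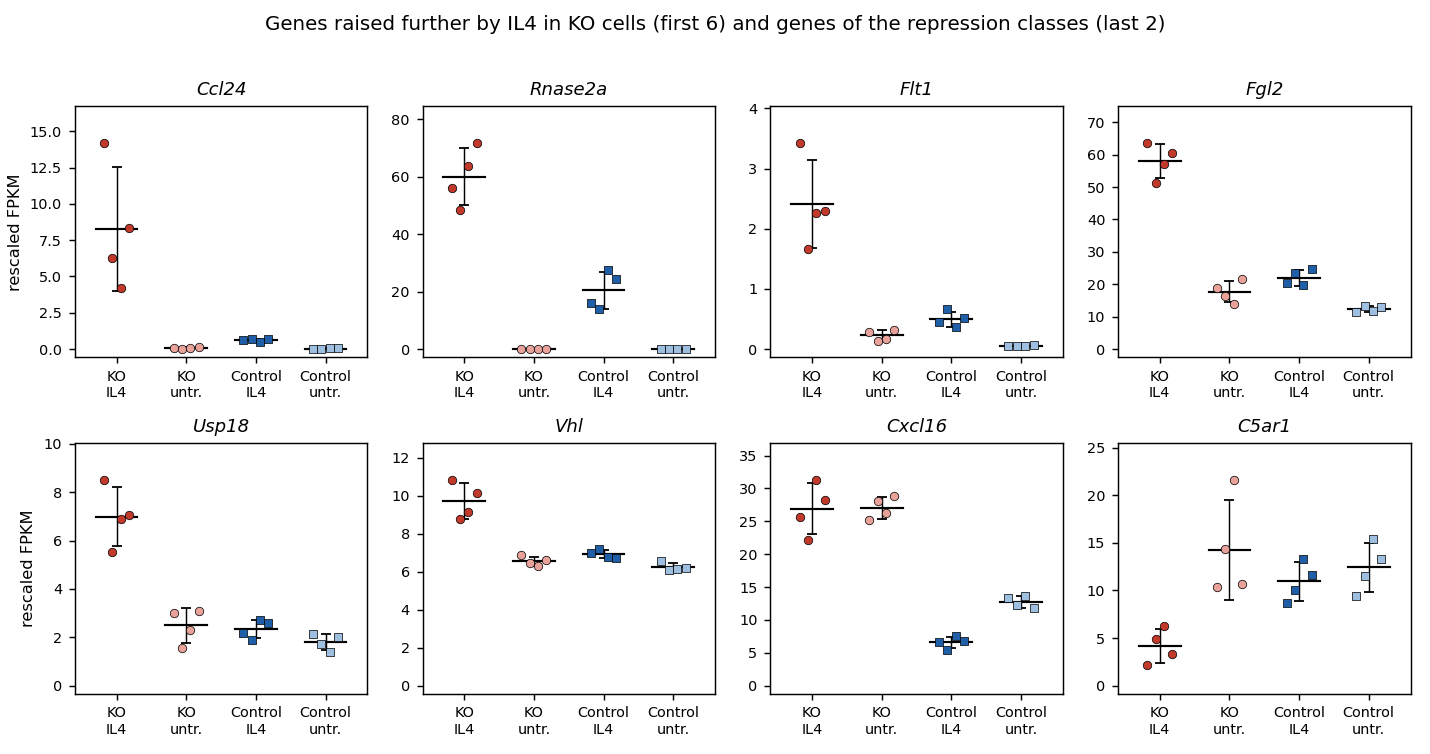
Rescaled FPKM of 6 genes whose induction by IL4 is restrained by the receptor (Ccl24, Rnase2a, Flt1, Fgl2, Usp18, Vhl), of Cxcl16 and of C5ar1, in 4 KO libraries with IL4, 4 untreated (untr.) KO libraries, 4 control libraries with IL4 and 4 untreated control libraries (points), with the group mean (line) and SD (bars). The first 6 genes are highest in KO cells with IL4, Cxcl16 falls with IL4 in control cells and not in KO cells, and C5ar1 is lowest in KO cells with IL4.

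Repression by IL4 also differed between the genotypes. Cxcl16, a transmembrane chemokine and scavenger receptor for oxidised lipoprotein, had 25.7, 22.2, 31.3 and 28.3 FPKM in KO cells with IL4 and 25.1, 28.0, 26.3 and 28.9 in untreated KO cells. Control cells had 6.58, 5.39, 7.52 and 6.79 with IL4 and 13.3, 12.2, 13.6 and 11.8 untreated. IL4 lowered it in control cells by 0.86 on the log2 scale, and the KO response was −0.02 (difference 0.85 ± 0.13, limma, adjusted p = 0.000379). Clec12a, an inhibitory C-type lectin, was lowered in both genotypes and kept 25.0, 33.1, 33.9 and 36.4 FPKM in KO cells with IL4 and 57.2 to 79.5 in untreated KO cells. Control cells had 9.85, 10.0, 15.1 and 11.9 with IL4 and 44.4 to 68.2 untreated. The untreated genotypes overlapped for Clec12a and the IL4-treated ones did not (difference 1.06 ± 0.24, limma, adjusted p = 0.0323). Lpcat2, which makes platelet-activating factor, Rin2, a Rab5 exchange factor, Rnf141 and the kinase Wee1, which holds cells before mitosis, were the other members, with differences of 0.77, 0.67, 0.41 and 0.36. Rnf141 overlaps Ampd3 in the annotation.

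In 5 genes IL4 lowered the level in KO cells with no change that passed in control cells. C5ar1, the main C5a receptor, had 2.18, 4.91, 6.29 and 3.31 FPKM in KO cells with IL4 and 10.3, 14.3, 21.6 and 10.7 in untreated KO cells. Control cells had 8.69, 10.1, 13.3 and 11.7 with IL4 and 9.46, 11.5, 15.4 and 13.4 untreated (difference −1.41 ± 0.33, limma, adjusted p = 0.0379). Cpt1a, the carnitine palmitoyltransferase that commits fatty acids to mitochondrial oxidation, had 6.65, 7.97, 9.89 and 7.98 FPKM in KO cells with IL4 and 9.98, 12.7, 15.1 and 12.4 in untreated KO cells. Control cells had 19.3, 19.4, 22.4 and 19.7 with IL4 and 17.2, 17.2, 20.2 and 19.3 untreated. KO cells were below control cells in every library pair for Cpt1a, with or without IL4, and the gap was wider with IL4 (difference −0.69 ± 0.16, limma, adjusted p = 0.04). Ly75, an endocytic lectin of the mannose receptor family, had 3.25 to 4.49 FPKM in KO cells with IL4 and 5.63 to 6.23 in untreated KO cells. Control cells had 13.3 to 14.3 with IL4 and 11.1 to 14.2 untreated. Ppt2, a lysosomal thioesterase, and Apobr, a receptor for lipoprotein particles that overlaps Cln3, had differences of −0.50 ± 0.11 and −0.70 ± 0.17. These 2 small classes depended on single libraries: leaving out each library in turn gave 3 to 7 and 1 to 6 genes, and without the 3 libraries with low sums 2 and 2. With DMSO-treated cells in place of untreated ones 5 of their 11 genes passed, and Clec12a, Rin2, Rnf141, Apobr, Cpt1a and Ly75 did not.

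The levels of the 2 genotypes were also compared directly, with and without IL4. KO and control cells with IL4 differed in 523 genes above 0 (5.06%) and 596 below (5.77%), and untreated cells in 182 above (1.76%) and 266 below (2.58%). The IL4 comparisons share their libraries with the rule that chose the 72, so the counts that follow are a description. Of the 41 genes whose induction needs the receptor, 38 were lower in KO cells with IL4, the exceptions being Ier3, Gatm and Sdc4. In untreated cells 12 were already lower (Awat1, Slco2b1, B3gnt7, Dgat1, Nr1h3, Smap2, Slc37a2, Nln, Elmo2, Sash3, Gsn and Pcyox1) and 26 did not pass. All 20 restrained genes were higher in KO cells with IL4, and in untreated cells Fgl2 and Rtkn were. All 6 genes of the class whose repression needs the receptor were higher in KO cells with IL4, with Cxcl16 higher in untreated cells too. All 5 genes with deeper repression were lower in KO cells with IL4, and Cpt1a, Ly75 and Ppt2 were lower in untreated cells.

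**Figure D4:**
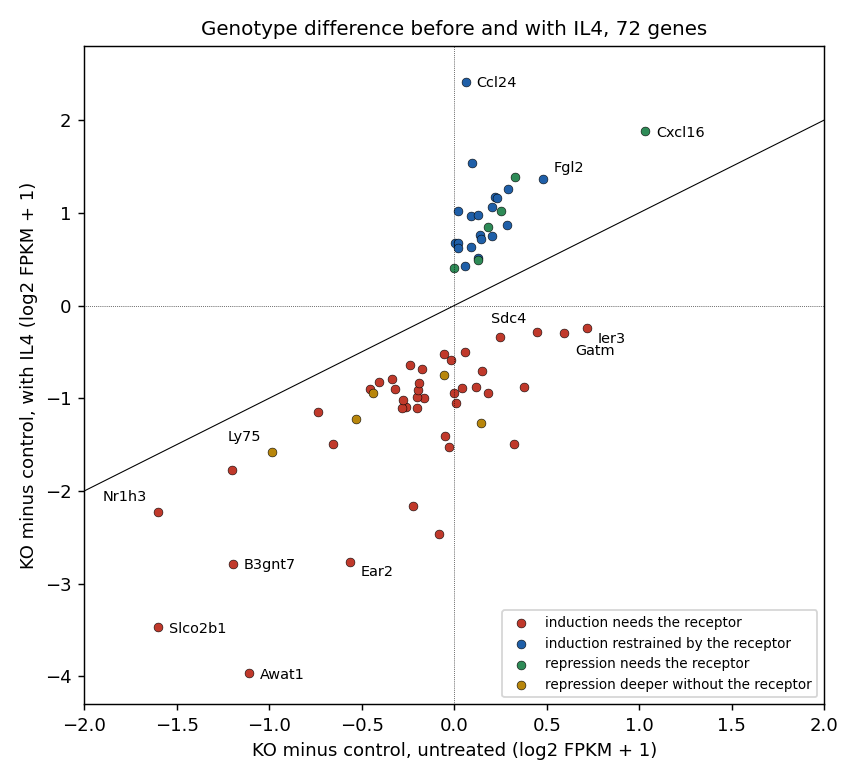
Difference between KO and control cells with IL4 (y axis) against the same difference in untreated cells (x axis), both in log2 FPKM + 1, for the 72 genes, coloured by class. Points off the diagonal line differ in their IL4 response; Slco2b1, Nr1h3 and Awat1 were already lower in untreated KO cells, Cxcl16 was already higher, and Ccl24 lay near 0 without IL4.

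The rosiglitazone libraries asked which of these genes a PPARγ ligand moves. Their means do not enter the IL4 comparison, but both share the estimate of spread. In control cells rosiglitazone raised 321 of 10327 genes (3.11%) and lowered 140 (1.36%), against DMSO. It raised 22 of the 41 genes whose induction needs the receptor (53.7%) and lowered 0, beside 116 of the 1231 genes that IL4 raised in control cells (9.42%). The 22 held all 12 genes that were already lower in untreated KO cells, and 10 of the 26 that did not pass there. Ear2 was raised by 3.36, Ear10 by 1.71, B3gnt7 by 1.37, Slco2b1 by 1.30, Dgat1 by 0.83, Nr1h3 by 0.81 and Awat1 by 0.79 on the log2 scale. The others raised were Ear1, Ear3, C5ar2, Pex16, Plk3, Megf9, Pla2g6, Smap2, Slc37a2, Gpt2, Nln, Elmo2, Sash3, Gsn and Pcyox1. The other 19 did not pass, among them Prps1 (0.08 ± 0.11), Angptl2 (0.03 ± 0.20), Gpd1 (0.11 ± 0.09), Dab2 (−0.05 ± 0.19) and Chil4 (0.01 ± 0.13), whose genotype differences in the IL4 response ran from −1.81 to −1.06. The remaining 14 of these 19 were Tex9, Ier3, Adipoq, Gatm, Ankrd55, Maff, Gas2l1, Sdc4, Ifngr1, Acox3, Osgin1, Cdk2, Sema4b and Plekha3.

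Of the 20 restrained genes rosiglitazone raised 0 and lowered 1, Fgl2, by 0.43 (limma, adjusted p = 0.0259). In control cells with DMSO 15 of the 20 averaged under 1 FPKM, where a fall could hardly be seen, so the count of genes lowered says little about them. It lowered Clec12a and Cxcl16 among the 6 genes whose repression needs the receptor, by 0.79 and 0.93, and raised C5ar1, Cpt1a, Ly75 and Ppt2 among the 5 with deeper repression, by 1.43, 0.95, 0.87 and 0.46. In KO cells 0 of the 10327 genes passed for rosiglitazone (0%; limma, 151 at an unadjusted p under 0.05), so the 0 among the 72 says nothing about them. The genotype difference in the rosiglitazone response passed above 0 for 11 genes (0.107%) and below 0 for 72 (0.697%); the 72 here are another set. It passed below 0 for 13 of the 41 genes whose induction needs the receptor and for Cpt1a and Ly75, above 0 for Cxcl16, and for 0 of the 20 restrained genes. The rosiglitazone group of KO cells had 3 libraries. Over all genes 18 had an IL4 genotype difference that differed from the rosiglitazone one (0.174%), a test that takes in the IL4 difference by which the 72 were chosen. Among the 72 it passed for 8: Awat1 (−2.06), Prps1 (−1.24), Gpd1 (−1.01) and Tex9 (−0.88) below 0, and Ccl24 (2.30), Rnase2a (1.45), Flt1 (0.96) and Car2 (0.91) above 0 (limma, adjusted p from 4.02e-06 to 0.0423). For the other 64 genes the 2 differences were not shown to differ. Of the 8, Rnase2a, Flt1 and Car2 no longer passed for the IL4 difference itself with a pseudocount of 0.1.

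**Figure D5:**
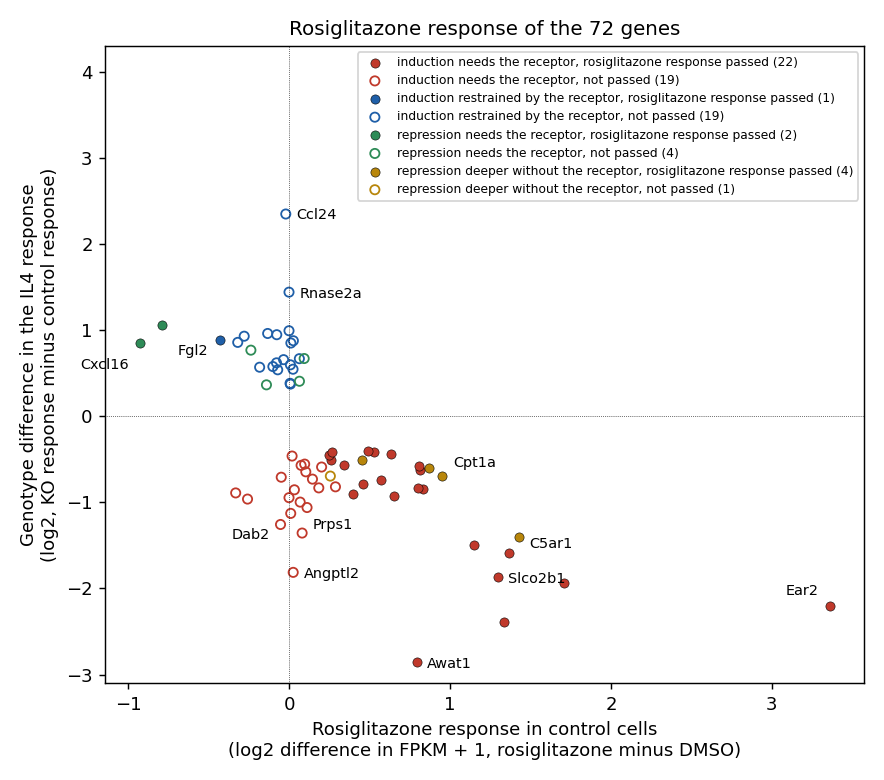
Genotype difference in the IL4 response (y axis, log2, KO minus control response) against the response of control cells to rosiglitazone (x axis, log2 difference in FPKM + 1 from DMSO) for the 72 genes, coloured by class; filled points passed for rosiglitazone and open points did not. Filled red points lie to the right of 0, while Prps1, Angptl2 and Dab2 are open red points near 0 and the blue points lie near 0 with Fgl2 alone filled.

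Pathway lists were counted in the same comparison, in which 0.697% of all genes tested passed. Of 16 tested PPARγ target genes 4 passed below 0 (Gpd1, Nr1h3, Adipoq and Cpt1a) and 0 above (limma; 7 below and 0 above at an unadjusted p under 0.05), with a median difference of −0.37 beside 0.01 over all genes. Plin2, the main lipid droplet coat protein, averaged 182 FPKM in KO cells with IL4 and 257 in untreated KO cells, against 573 in control cells with IL4 and 547 in untreated control cells, and its difference of −0.56 did not pass (limma, adjusted p = 0.0741). Fabp4, a fatty acid-binding protein, averaged 191, 209, 624 and 443 FPKM in the same 4 groups, and its difference of −0.61 did not pass either (limma, adjusted p = 0.239). Cd36, a scavenger receptor, was listed at 0 in KO library 4 with IL4, which widened its interval to between −5.41 and 1.21. Of 21 tested genes of mitochondrial fatty acid oxidation Cpt1a alone passed, of 22 peroxisomal genes Acox3 and Pex16, of 17 genes of fatty acid and triglyceride synthesis Dgat1 and Awat1, of 15 LXR target genes Nr1h3 alone, and of 20 genes of glutamine and glutamate metabolism Gpt2 alone, all below 0. The desaturase Scd1, with a difference of −1.10 (95% interval −1.72 to −0.48), did not pass (limma, adjusted p = 0.129).

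As 0.697% of all genes tested passed, a count of 0 says little about a short list. In the other lists, 0 members passed by limma. These were lipid droplet coat and lipolysis (9 tested, 1 at an unadjusted p under 0.05), cholesterol synthesis and uptake (24 tested, 1), oxidative phosphorylation (33 tested, 1), the tricarboxylic acid cycle (23 tested, 3), glycolysis (19 tested, 3), inflammatory genes (13 tested, 0), MHC class II presentation (9 tested, 1), macrophage fusion (14 tested, 2), lysosome (22 tested, 2), oxidative stress (14 tested, 2) and the cell cycle (22 tested, 0). IL4 raised 10.1% of all genes in KO cells and 11.9% in control cells. Of the 33 oxidative phosphorylation genes it raised 13 in KO cells and 19 in control cells. Of the 9 MHC class II genes it raised 7 in KO cells and 8 in control cells. The median genotype differences of these 2 lists were −0.02 and −0.21. Of 5 resident peritoneal macrophage and 9 macrophage markers tested, 0 passed for the genotype difference (limma, and 0 at an unadjusted p under 0.05). The summed FPKM of 12 resident macrophage markers was 14.6 to 27.3 in KO cells with IL4 and 22.0 to 28.4 in untreated KO cells. Control cells had 12.9 to 15.6 with IL4 and 12.9 to 19.2 untreated, so the untreated genotypes did not overlap. The summed FPKM of 8 neutrophil markers was 4.68 to 8.04 in KO cells with IL4 and 7.05 to 15.2 in untreated KO cells, against 11.5 to 21.6 in control cells with IL4 and 14.2 to 20.2 in untreated control cells; most of it was S100a8, and S100a9 and Camp were at 0 in all 16 libraries. The summed FPKM of 7 dendritic cell markers was 1.25 to 2.43 in KO cells with IL4 and 0.687 to 1.09 in untreated KO cells, against 0.552 to 1.04 in control cells with IL4 and 0.187 to 0.680 in untreated control cells. With IL4 the genotypes did not overlap in either sum. Among the neutrophil markers Cxcr2 went the other way, at 0.291 to 0.486 in KO cells with IL4 against 0.0657 to 0.121 in control cells with IL4. The dendritic sum was mostly Zbtb46 and Clec9a, and Flt3, Xcr1 and Siglech reached at most 0.0472. The part of such RNA in the results was not tested.

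The genes next to the threshold show how it acts. Apobr (−0.70 ± 0.17, adjusted p = 0.0495) and 4932438H23Rik (0.38 ± 0.09, adjusted p = 0.0466) were just inside it by limma, and Acsl1 (−0.35 ± 0.09, adjusted p = 0.0504) and Ace (0.35 ± 0.09, adjusted p = 0.0545) just outside. On the filter of at least 1 FPKM in 3 libraries, 4932438H23Rik was just inside with a third-highest value of 1.00 FPKM and Zfp865 just outside with 0.999.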

How the data were processed

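The table holds FPKM values that the authors made from their reads and deposited as 1 column per library; per the submitters' processing notes TopHat2, featureCounts, edgeR and the mouse build mm9 were used, with no versions and with no tool named for the FPKM step. Libraries were made from total RNA with a stranded Illumina kit, per the labels' protocols.

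FPKM were rescaled by a factor per library, its median ratio to the geometric means of the 10215 genes above 0 throughout. The file lists 24302 symbols, 25 of them dates (0.136% of the FPKM, 14 past the filter), which were left out. The 10327 genes that reached 1 FPKM in 3 or more libraries entered the test. Group means were modelled on log2(FPKM + 1) over the 31 libraries in limma 3.58.1 (R 4.3.3), letting the prior variance follow the mean level, and p was adjusted by Benjamini-Hochberg over those genes; the threshold was an adjusted p of 0.05. Tests were two-sided, and the code was tested on simulated data. Classes were counts from these calls, with no test of their own. Correlations between pairs of the 16 libraries lay between 0.926 and 0.993, so none was a copy of another.

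The genes and lists were chosen with earlier results of these data known. The rule for named genes took Pparg, then in each class the genes with the largest absolute difference whose 4 KO responses did not overlap the 4 control ones. It took up to 10 in each class of induced genes and 5 in each class of repressed genes. These responses were differences between libraries of the same replicate number, a pairing that the main fit did not use. Then came up to 3 members of each of the 21 lists. The remaining members are named so that all 72 are accounted for, and further list members were chosen after their values were seen. Neighbouring and overlapping genes come from the RefSeq table of GRCm38.p6, in which 71 of the 72 were found, and no coordinates of the mm9 build are given. Alternatives were other scalings, pseudocounts, filters, sets of libraries and fits, and leaving out each of the 16 libraries in turn.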

Additional observations from a re-analysis of the deposited data

Results flagged for a closer look

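The genotype difference in the IL4 response passed for 26 genes above 0 and 46 below 0, by the interaction contrast of the limma fit, and these are the genes described above. Among the named genes, 15 of 152 groups of 4 libraries held 1 library far from the other 3 by Dixon's criterion; chance marks about 1 in 20 groups. In 3 of the 15 the other 3 values were all 0, which marks any value, so that rate does not apply to them. Of these 15, 5 were control IL4 library 3. It had Awat1 at 14.2 FPKM (others 18.3 to 19.1), Ccl24 at 0.481 (others 0.638 to 0.669) and Car2 at 0.320 (others 0.632 to 0.704), and it was highest for Cpt1a at 22.4 (others 19.3 to 19.7) and Nr1h3 at 40.8 (others 35.3 to 36.2). KO IL4 library 4 had Il4i1 at 2.33 (others 1.15 to 1.27). KO untreated library 4 had Il4i1 at 0.0615 (others at most 0.00290), Ear3 at 0.0658 (others 0) and Dgat1 at 5.52 (others 4.86 to 4.97), and KO untreated library 3 had Apobr at 11.5 (others 8.67 to 9.06). Control untreated library 1 had Tppp3 at 0.264 (others 0.148 to 0.161) and Dgat1 at 8.90 (others 8.38 to 8.46). Control untreated library 3 had Ear3 at 0.328 (others 5.02e-06 to 0.000304) and Ear1 at 0.0876 (others 0), and library 4 had Rnase2a at 0.0548 (others 0). The deposited FPKM of control IL4 library 2 summed to 152055, against 283145 to 289324 in the other 3 libraries of its group.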

How the results depend on the processing

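All 72 genes kept their direction under every alternative run that tested them. The runs reuse most of the libraries by which the 72 were chosen, which largely fixes that outcome. In each of the 16 fits without 1 library 48 passed, and Awat1, Angptl2, Ear1 and Cxcl16 passed in every fit. Ccl24, Tex9 and Gpd1 passed in every fit that tested them, as the filter of at least 1 FPKM in 8 libraries left them out. Values as deposited, where the median difference over all genes was 0.31, gave 24 genes (14 above and 10 below 0, 58.3% above against 36.1% after rescaling), 862 genes for IL4 in KO cells and 698 in control cells, and 10, 13, 1 and 0 genes in the classes of needed induction, restrained induction, needed repression and deeper repression. A pseudocount of 0.1 gave 43 genes, 12 above 0, with 5 restrained and 3 with deeper repression; a pseudocount of 5 gave 84, with 3 of deeper repression. At least 1 FPKM in 8 libraries gave 52 genes, 11 above 0 and 6 restrained, and no filter gave 98, 31 restrained. The 16 libraries alone gave 43 genes, 9 above 0, with 6 restrained, 3 of needed repression and 2 of deeper repression. Without KO untreated libraries 2 and 3 and control IL4 library 2, 46 genes passed, 16 above and 30 below 0, with 2 and 2 in the repression classes. DMSO-treated cells, kept for 24 h like the IL4 cells, in place of untreated ones gave 82 genes, 60 of them among the 72. The members that no longer passed were Acox3, Osgin1, Sema4b, Elmo2, Usp18, Ubxn11, Clec12a, Rin2, Rnf141, Apobr, Cpt1a and Ly75. Scaling by the 75th percentile gave 71, a robust prior variance 71, and treating zeros of high genes as missing 72.

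Leaving out each library in turn, an alternative added after seeing the data for the class counts, gave 53 to 73 genes, 17 to 31 above 0 and 35 to 47 below 0, with 34 to 42, 13 to 26, 3 to 7 and 1 to 6 in the 4 classes. The fewest restrained genes (13) came without control IL4 library 3 and the most (26) without KO IL4 library 3; the fewest above 0 (17) came without control untreated library 4, control IL4 library 3 or KO IL4 library 4. The cause was not tested.

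The labels number replicates 1 to 4 without saying what a number is. Deviations of same-numbered IL4 and untreated libraries correlated at 0.57, 0.17, 0.74 and 0.66 in KO cells and at 0.51, −0.20, 0.52 and 0.22 in control cells. The libraries with low sums, KO untreated 2 and 3 and control IL4 2, were in the pairs at 0.17, 0.74 and −0.20. Of 8 libraries 5 correlated best with their own number. Not every pair exceeded 0.1, and the main fit did not take the numbers to pair the libraries. The rule for named genes did form responses by number. As a hint from the data, the Y-linked gene Ddx3y had 20.5 and 18.3 FPKM in KO library 2 with IL4 and untreated, 19.7 and 18.7 in control library 1 with IL4 and untreated, and 0 in the other libraries of the 4 groups, so each group held 1 such library. With DMSO Ddx3y had 19.7 FPKM in KO library 2 and 17.2 in control library 1. With rosiglitazone it had 18.6 in KO library 1 and 16.3 in control library 1. A fit with the replicate number as a block on the 16 libraries gave 169 genes (70 above and 99 below 0), 3461 for IL4 in KO cells and 3776 in control cells, and 74, 50, 20 and 25 genes in the 4 classes; 64 of the 72 passed in it. Depth is unknown, so the precision of levels below 1 FPKM, where several restrained genes lie in control cells, cannot be stated.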
